A study of Mus musculus with 6 samples.

Results

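Class switch recombination and somatic hypermutation begin with the same lesion, a uracil in place of a cytosine in an immunoglobulin gene. Uracil-DNA glycosylase (*Ung*) removes the uracil, and mismatch repair, in which MSH6 belongs to the mismatch sensor, PMS2 to the nicking complex and EXO1 is the exonuclease, can read the same lesion as a mismatch. DNA polymerase eta (*Polh*) then copies across the damage with errors, the protein of *Trp53bp1* holds broken switch regions for end joining, and terminal transferase (*Dntt*) adds untemplated bases to V(D)J junctions in B cell and T cell progenitors. B1a cells, the CD5+ B cells of the body cavities, make natural IgM and can also switch class. The 7 genes *Ung*, *Exo1*, *Msh6*, *Pms2*, *Trp53bp1*, *Polh* and *Dntt* were chosen by name, and every non-control probe that the array files name for them was read. They have 9 of the 55681 probes on the array and are 7 of its 36163 named genes or regions.

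Total RNA of sorted peritoneal cavity (PC) B1a cells was measured on 6 one-colour Agilent arrays, 3 per genotype. All cells came from female mice aged 7 weeks on a C57Bl/6 background. The knockout mice were p40-/-CD25-/- and the control mice p40-/-CD25+/-, so that both genotypes lack p40, the IL-12 and IL-23 subunit encoded by *Il12b*, and the controls keep 1 allele of CD25, the IL-2 receptor alpha chain encoded by *Il2ra*. Both deletions are in the germline, so the genotype is that of the whole animal and not of B cells alone, and p40-/-CD25-/- mice develop autoimmune cholangitis. The labels number the replicates but do not say that they are separate mice, so p-values measure the spread between these samples, which may be technical.

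Each level below is the log2 processed intensity of a probe minus the 75th percentile of its array, and each difference is knockout minus control on that scale. The 75th percentile of the processed intensity itself was 252 to 272 on control and 66.5 to 162 on knockout arrays, and 47.2% to 50.6% of spots on control and 39.7% to 45.9% on knockout arrays cleared the background mark of the scanner software (well above background). Saturation marked no spot, and all arrays shared 1 slide and 1 scan. *Il2ra* was lower by 1.38 (log2, limma adjusted p = 0.119) and *Il12b* differed by -0.02, and both probes cleared background on every array, so neither shows its deletion as a missing signal. All 5 B cell markers and all 6 B1a markers cleared it on each of the 6 arrays. Precision is limited by the number of arrays, and the smallest p that an exact permutation of 3 and 3 arrays can give is 0.1.

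The probe of *Ung* differs from the others in its letters, and it is shown here because they bear on how its value can be read. Its last 34 of 60 bases (27 to 60, or 56.7%) are one uninterrupted GT repeat, while the other 8 member probes hold a run of alternating G and T of at most 7 bases. Its first 30 bases are shown 5′ to 3′ with the repeat in capitals, and the remaining 30 are repeat alone. The last 30 bases of the probes of *Exo1*, *Msh6*, *Trp53bp1* and *Dntt* are shown beside it, with AATAAA, the common letters of a polyadenylation signal, in capitals. Those letters are in 10.1% of all 55681 probes.
Ung: tatcctttagagttagagatttcaaaGTGT
Exo1: tacaagaaaatcttatcaactggagagatg
Msh6: gaaaaaggtggtaaattcagacaacattat
Trp53bp1, brighter probe: cctcttggtgtcagatcaacaacagaactt
Trp53bp1, dimmer probe: aagtgttcAATAAAccccggttacacaaat
Dntt: tgtctgaatctctgtgtattgccAATAAAa

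Of the 9 member probes, 8 cleared background on every array of 1 or both genotypes and were tested, which leaves 6 of the 7 genes, all but *Dntt*. No member probe passed the adjusted p of 0.05 in limma, a call made for 0.0808% of all 24754 tested probes. The methods' t-test called none after adjustment either. None reached the threshold of the study, 2-fold or more at an unadjusted p no higher than 0.05, which 3.63% of probes did. *Exo1* and *Msh6* had an unadjusted limma p within 0.05 and were both lower in knockout samples, as were 12% of all tested probes at that p. By the methods' t-test the unadjusted p was 0.00506 for *Exo1* and 0.0528 for *Msh6*. It was 0.0457 for *Ung* and 0.0372 for the dimmer *Trp53bp1* probe, both higher in knockout samples. The 3 arrays of one genotype did not overlap the 3 of the other for *Exo1* and *Msh6* (lower, as for 19.6% of tested probes) and for *Ung* and the dimmer *Trp53bp1* probe (higher, as for 15.6%).

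**Figure D1:**
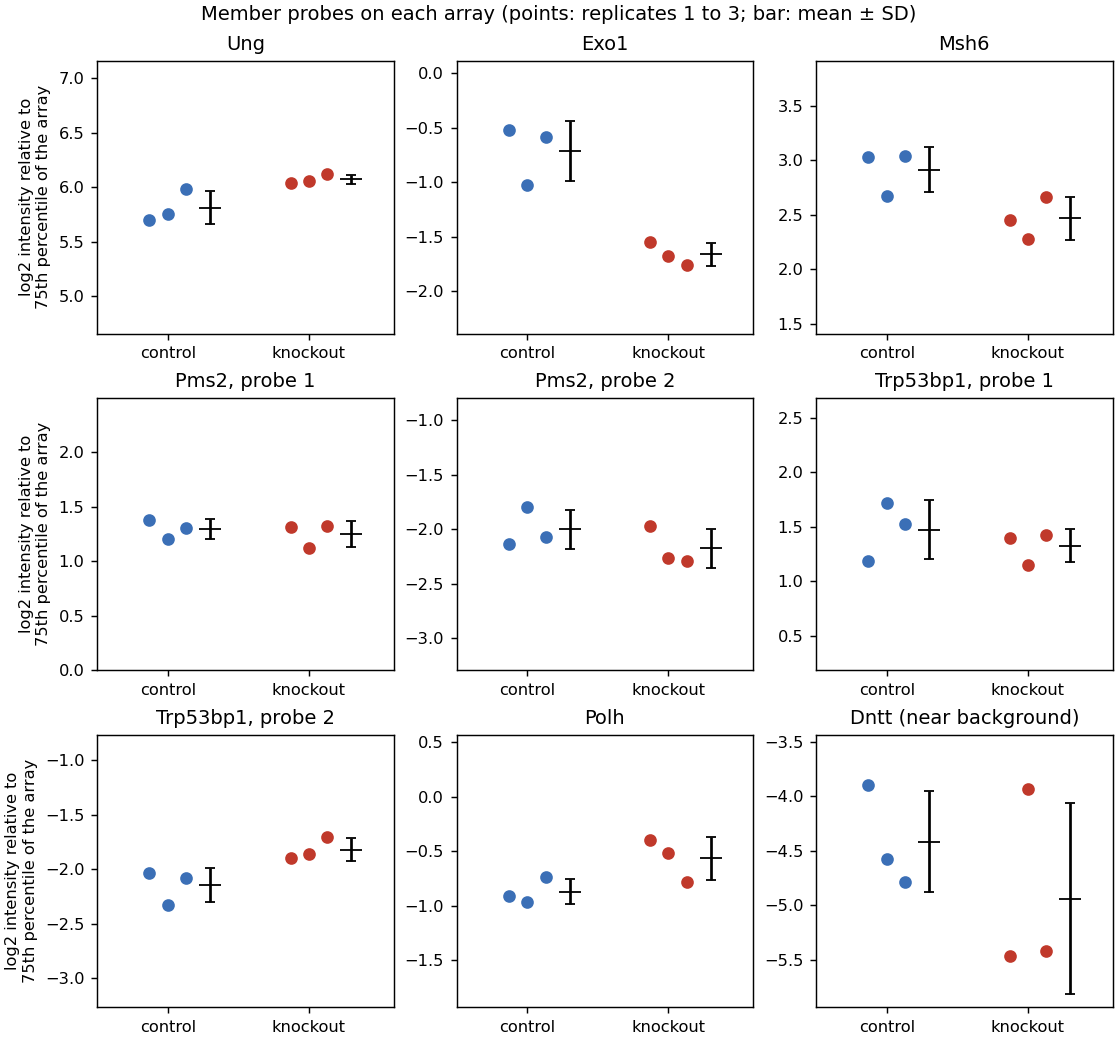
Level of each member probe on each array (log2 processed intensity relative to the 75th percentile of the array), with blue points for control and red points for knockout replicates 1 to 3 and black bars for mean ± SD (n = 3); all panels span the same number of log2 units, and probe 1 is the brighter of a gene with 2 probes. The knockout points of *Exo1* lie clear of the control points, whereas the ranges of the genotypes overlap for both *Pms2* probes.

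*Exo1* had the largest difference of the tested members. Its probe lies at chr1:177838682-177838741 on the plus strand (mm9). It was -0.52, -1.03 and -0.58 on control arrays 1, 2 and 3 and -1.55, -1.68 and -1.76 on knockout arrays 1, 2 and 3. Thus all knockout values were below all control values, with a gap of 0.52 between the nearest values, and control 2 was the lowest control. The mean was 1.93-fold lower in knockout samples (log2 difference -0.95, standard error 0.181, 95% confidence interval -1.38 to -0.53, limma unadjusted p = 0.00103, adjusted p = 0.0890). Of all tested probes, 1.74% had a more negative difference. Probes of like brightness (the second of 5 equal classes, from the dimmest) had a median difference of 0.11, with quartiles of -0.23 and 0.45.

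The difference of *Exo1* was negative in all 20 alternative analyses, between -1.11 and -0.26. It passed the adjusted p when limma used a trend and robust estimation (0.0440) and when it used array weights (0.0453), settings that called 980 and 688 of the 24754 probes in place of 20. It passed the 2-fold threshold without control 2 (-1.11), without knockout 1 (-1.01) and after quantile normalization (-1.07). With normexp background correction it was -0.26 after scaling to the 75th percentile and -0.56 after quantile normalization.

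*Exo1* is also a gene of S phase, so genes of proliferation were read on the same arrays. Of 22 tested genes of a proliferation list, all 22 had a lower mean in knockout samples, with a median difference of -0.61, against -0.12 over all 18253 tested genes. With limma's unadjusted p at 0.05 or less, 14 of the 22 were lower, against 13% of all tested genes, and 5 passed the 2-fold threshold, against 3.54% of all. None of the 22 passed the adjusted p in limma or in the methods' t-test. In other settings, 11 passed with normexp and the 75th percentile, 5 with a trend and robust estimation and 5 with array weights. Those settings called 37.7%, 3.96% and 2.78% of all tested probes. With the filter on all 6 arrays, 1 of the 17 list genes still tested passed, against 0.465% of all tested probes. The 5 past the 2-fold threshold in the main analysis were *Top2a*, *Rrm2*, *Ccna2*, *Cdc6* and *Cdk1*. *Top2a*, a topoisomerase of dividing cells, was 2.08-fold lower (limma adjusted p = 0.0790), and *Rrm2*, which makes deoxynucleotides, 2.09-fold lower (0.137), both without overlap. *Ccna2*, cyclin A2, was 2.10-fold lower with overlapping arrays (limma adjusted p = 0.160). *Cdc6*, which licenses origins, and *Cdk1*, the mitotic kinase, were not well above background on any knockout array, so they were at least 1.22-fold and at least 1.81-fold lower (adjusted p of the fitted difference 0.127 and 0.129). The median of the list was -0.92 without knockout 2 and -0.36 with normexp and quantile normalization, and with normexp before scaling to the 75th percentile 16 of the 22 were lower. The part of proliferation in the difference of *Exo1* was not tested, and in RNA of many cells, fewer cells that transcribe a gene and less RNA per cell cannot be told apart.

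*Msh6* was read at chr17:88390143-88390202 on the plus strand. It was 3.03, 2.68 and 3.05 on control and 2.46, 2.28 and 2.67 on knockout arrays. The genotypes did not overlap, but only by 0.0079, the distance between control 2 and knockout 3. The mean was 1.37-fold lower in knockout samples (log2 difference -0.45, standard error 0.179, 95% confidence interval -0.87 to -0.03, limma unadjusted p = 0.0386, adjusted p = 0.187). Its class of brightness, the fourth of 5, had a median difference of -0.21 with quartiles of -0.36 and -0.01, so that *Msh6* lay below the lower quartile, and 13.2% of all tested probes had a more negative difference. *Msh6* was lower in all 20 alternatives (-0.69 to -0.26), and normexp before the 75th percentile took it past the adjusted p (0.0185), as it did 9330 of the 24754 probes.

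*Pms2* was read by 2 probes on the plus strand of chromosome 5 whose starts are 2200 bases apart. The brighter, at chr5:144692034-144692093, was 1.38, 1.20 and 1.30 on control and 1.31, 1.12 and 1.32 on knockout arrays. The genotypes overlapped, and the log2 difference was -0.05 (standard error 0.145, 95% confidence interval -0.39 to 0.29, limma adjusted p = 0.848). The dimmer, at chr5:144689834-144689893, was -2.14, -1.80 and -2.07 on control and -1.97, -2.27 and -2.29 on knockout arrays. It overlapped as well, with a difference of -0.18 (95% confidence interval -0.57 to 0.22, limma adjusted p = 0.511). The direction of *Pms2* depended on the scaling, since the brighter probe was 0.05 higher after quantile normalization and the dimmer one 0.28 higher with normexp and the 75th percentile.

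**Figure D2:**
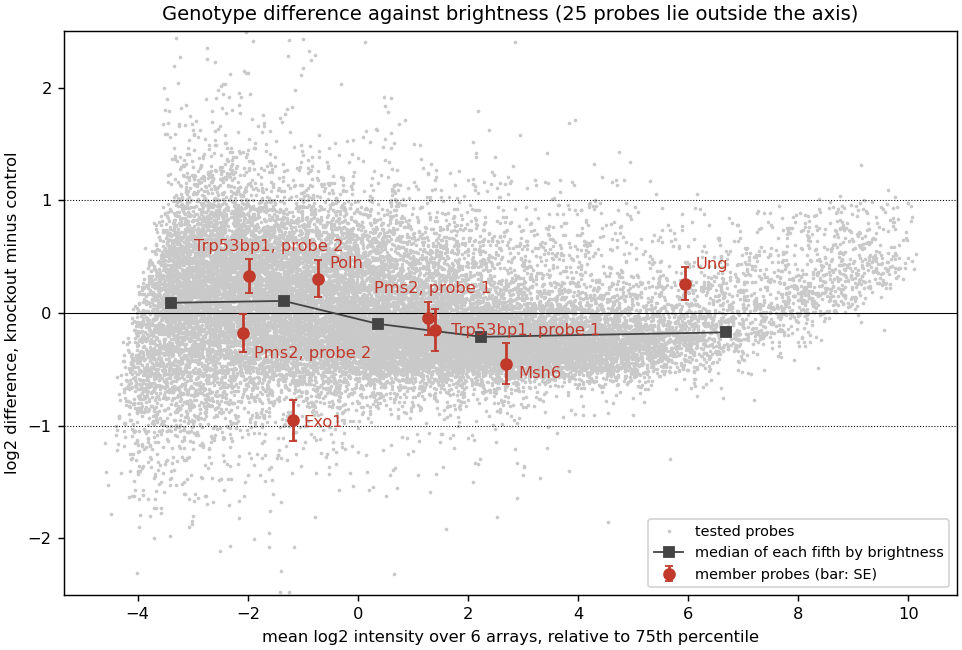
Knockout minus control log2 difference (vertical) against the mean log2 level over 6 arrays (horizontal) for the 24754 tested probes (grey), with the median of each of 5 equal classes of brightness (squares, placed at mid-range) and the member probes (red, ± standard error); dotted lines mark a 2-fold difference. *Exo1*, at -0.95, is the member nearest to a dotted line.

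Higher on every knockout array, *Ung* was read by a single probe at chr5:114588731-114588790 on the plus strand. It was 5.70, 5.75 and 5.98 on control and 6.04, 6.06 and 6.12 on knockout arrays, with 0.06 between control 3 and knockout 1. The mean was 1.20-fold higher (log2 difference 0.26, standard error 0.147, 95% confidence interval -0.08 to 0.60, limma adjusted p = 0.291). Because of its repeat, the probe was set beside other probes with one, a comparison added after its value was seen. The array holds 51 other probes with a GT run of at least 20 bases, and all 51 cleared background and were tested. All 51 were higher in knockout samples, by 0.12 to 0.37 with a median of 0.24, whereas 10365 of the 24584 other tested probes with a run under 10 bases were higher and their median was -0.09.

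Array by array the likeness was close. With each probe centred on its own mean over the 6 arrays, the root mean square distance to *Ung* had a median of 0.0412 log2 units over these 51 probes, 0.228 over 118 probes with a run of 10 to 19 bases and 0.330 over those with a shorter run. Of 18242 genes compared, the 2 nearest to *Ung* were *Spag7* (0.0141) and *Hemgn* (0.0173), whose probes hold GT runs of 30 and 36 bases. With normexp before scaling to the 75th percentile, the difference of *Ung* turned to -0.06 and 50 of the 51 repeat probes turned negative as well (median -0.08), while in each other alternative run on single probes *Ung* and all of the repeat probes tested were higher. None of the 51 passed the adjusted p. How much of the signal of this probe comes from the *Ung* transcript was not tested.

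**Figure D3:**
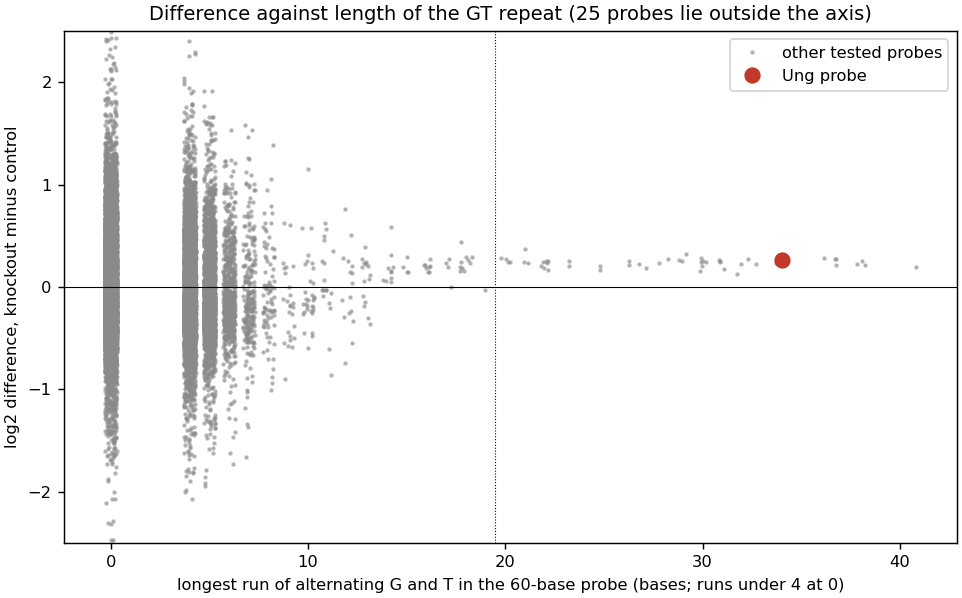
Knockout minus control log2 difference (vertical) against the longest run of alternating G and T in the probe (horizontal, in bases, spread slightly sideways, with runs under 4 bases at 0) for tested probes in grey and the *Ung* probe in red; the dotted line marks a run of 20 bases. The spread narrows as the run lengthens, and all probes right of the dotted line lie between 0.12 and 0.37, *Ung* among them at 0.26.

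*Trp53bp1* was read by 2 probes on the minus strand of chromosome 2 whose starts are 2086 bases apart, and they differed in direction. The brighter, at chr2:121024792-121024851, was 1.18, 1.71 and 1.52 on control and 1.40, 1.15 and 1.43 on knockout arrays. The genotypes overlapped, with control 1 beside the lowest knockout (log2 difference -0.15, standard error 0.185, limma adjusted p = 0.612). Without control 1 the difference was -0.29 and without control 2 it was -0.03. The dimmer, at chr2:121022706-121022765, which holds the AATAAA letters shown above, was -2.04, -2.33 and -2.08 on control and -1.90, -1.86 and -1.71 on knockout arrays. All 3 knockout arrays were above all 3 control arrays (log2 difference 0.33, standard error 0.153, 95% confidence interval -0.03 to 0.69, limma adjusted p = 0.228). The differences of the 2 probes were 0.48 apart, and that gap was not tested. The difference of the dimmer probe was 0.13 after quantile normalization, 0.13 with normexp and quantile normalization and 0.12 in the deposited table. It passed the adjusted p (0.0237) only with normexp and the 75th percentile, the setting that called 9330 of all probes.

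*Polh*, at chr17:46309069-46309128 on the minus strand, was -0.91, -0.96 and -0.74 on control and -0.39, -0.52 and -0.78 on knockout arrays. Only knockout 3 lay within the range of the controls, and the mean was 1.24-fold higher in knockout samples (log2 difference 0.31, standard error 0.164, 95% confidence interval -0.08 to 0.69, limma adjusted p = 0.275). It was higher in all 20 alternatives, by 0.15 to 0.41, and passed the adjusted p in none. *Polh* and the dimmer *Trp53bp1* probe are in the same class of brightness as *Exo1*, and their differences lie within its quartiles (-0.23 and 0.45).

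*Dntt*, at chr19:41133936-41133995 on the plus strand, was well above background on 1 control array and on no knockout array, so no fold is given. It read -3.90, -4.57 and -4.79 on control and -5.47, -3.93 and -5.42 on knockout arrays, values that overlap and lie mostly under the lowest probe counted well above background on the same array (-4.53 to -4.09 on control, -3.67 to -2.47 on knockout arrays). Other genes of B cell progenitors were read beside it. Of 8 such genes, *Rag1* and *Rag2*, the recombinase that acts with *Dntt*, and *Igll1* and *Erg* were well above background on no array, while *Cd93* and *Vpreb1* were on all 6. *Vpreb1*, of the surrogate light chain, differed by -0.68 without overlap (limma adjusted p = 0.121), and *Cd93* by -0.54 with overlap (0.382).

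**Figure D4:**
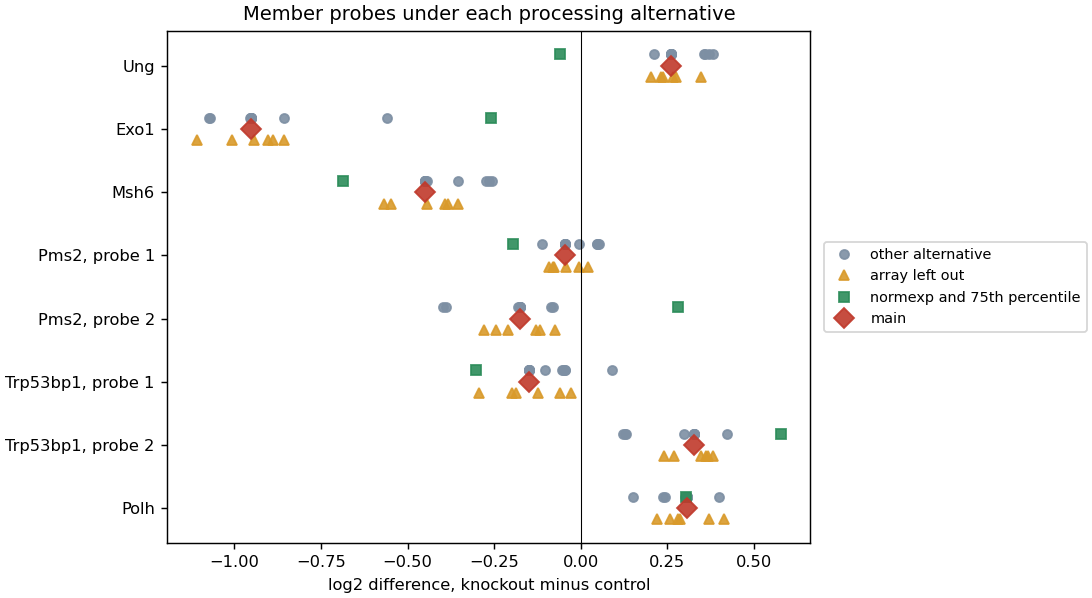
Knockout minus control log2 difference of the 8 tested member probes in the main analysis (diamonds), with 1 array left out (triangles), with normexp and the 75th percentile (squares) and in the other alternatives (circles). *Exo1* and *Msh6* lie left of 0 and *Polh* and the dimmer *Trp53bp1* probe right of 0 throughout, whereas the brighter *Pms2* probe lies on both sides.

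By 1 probe per gene, the median difference of the 6 tested members was -0.10, and without *Ung* it was -0.15, against -0.12 over all tested genes, and the single members went both ways, from -0.95 to 0.31. This median was -0.23 against -0.10 over all genes with normexp and the 75th percentile, 0.0037 against -0.07 after quantile normalization and -0.02 against -0.08 without knockout 2. Lists of other genes that act on the same lesions were read with them. Of 81 tested genes in 6 pathway lists, the 6 members included, 67 had a lower mean in knockout samples, as did 10989 of all 18253 tested genes (60.2%). Their median difference was -0.24, and its distance from that of all genes varied with the setting. It was -0.38 against -0.10 with normexp and the 75th percentile, -0.30 against -0.14 without knockout 3, -0.26 against -0.12 without knockout 1 and -0.15 against -0.02 when scaled on the median of detected probes. It lay nearer at -0.10 against -0.07 after quantile normalization, -0.11 against -0.08 in the deposited table, -0.08 against -0.05 with normexp and quantile normalization and -0.14 against -0.08 without knockout 2. None passed the adjusted p in limma (0.0657% of all genes did) or in the methods' t-test, and none passed the 2-fold threshold. With limma's unadjusted p at 0.05 or less, 15 were lower and 2 higher, against 13% and 11.5% of all tested genes.

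In mismatch repair, 18 of 19 tested genes had a lower mean, with a median difference of -0.34, against 60.2% and -0.12 over all tested genes. At an unadjusted limma p within 0.05, 6 were lower, against 13% of all tested genes. The list includes the members *Exo1*, *Msh6* and *Pms2*, and *Exo1* and *Msh6* are among those 6. *Lig1*, the ligase that seals the repaired strand, was 3.49, 3.30 and 3.24 on control and 2.89, 3.00 and 2.71 on knockout arrays. These values did not overlap, and the log2 difference was -0.47 (limma adjusted p = 0.144). Many members of this list also serve DNA replication, among them *Lig1*.

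In uracil excision, 7 of 11 tested genes had a lower mean (median -0.14), against 60.2% of all tested genes. At an unadjusted limma p within 0.05 there was 1 lower and none higher, against 13% and 11.5% of all tested genes. *Apex2*, an endonuclease of abasic sites, was 0.34 higher on the log2 scale without overlap (limma adjusted p = 0.224).

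In translesion synthesis, 8 of 11 tested genes had a lower mean (median -0.22), against 60.2% of all tested genes. The 2 at an unadjusted limma p within 0.05 were both lower, as were 13% of all tested genes at that p. *Usp1*, which removes ubiquitin from PCNA, differed by -0.50 (limma adjusted p = 0.132) and *Polk*, DNA polymerase kappa, by -0.52 (0.161), both without overlap, while *Polh* of the same list was higher. In the double-strand break response, 13 of 15 had a lower mean (median -0.22) and 4 were lower at that p. *H2afx*, the histone marked at breaks, differed by -0.79 (limma adjusted p = 0.107) and *Bard1*, the partner of BRCA1, by -0.70 (0.119). The other 2, *Rnf168* (-0.46) and *Topbp1* (-0.44), are named after their values were seen.

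In end joining and V(D)J recombination, all 11 tested genes had a lower mean (median -0.19), against 60.2% of all tested genes. Yet none of the 11 had an unadjusted limma p within 0.05. *Lig4*, the ligase of end joining, differed by -0.34 (limma adjusted p = 0.245) and *Prkdc*, the DNA-dependent kinase, by -0.30 (0.326), both with overlapping arrays. Among genes of targeting and switch transcription, 10 of 14 had a lower mean (median -0.21). At an unadjusted limma p within 0.05 there were 2 lower and 2 higher, against 13% and 11.5% of all tested genes. *E2f1*, a transcription factor of S phase entry, differed by -0.64 (limma adjusted p = 0.106), and *Pax5*, which keeps B cell identity, by 0.57 (0.121), each without overlap. The other 2, *Ctnnbl1* (-0.58) and *Id2* (0.86), are named after their values were seen.

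**Figure D5:**
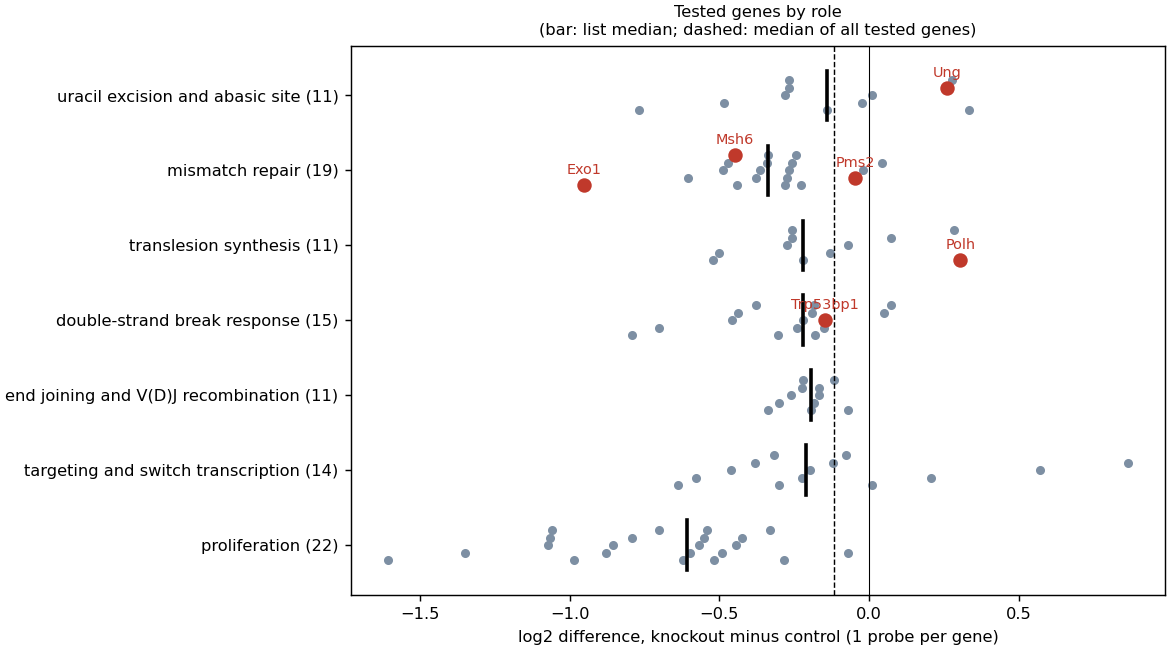
Knockout minus control log2 difference of each tested gene (points, 1 probe per gene) in 6 pathway lists and a proliferation list, with the number of tested genes in brackets, members in red, a black bar at each list median and a dashed line at the median of all tested genes (-0.12). The proliferation list lies farthest left, with a median of -0.61, and mismatch repair has the lowest median of the pathway lists, at -0.34.

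Markers of germinal centre B cells, plasma cells, T cells and macrophages were read as the sum of each list, in linear intensity relative to the 75th percentile. The 7 germinal centre genes gave 7.32 to 7.94 on control and 5.41 to 6.23 on knockout arrays, and 5 plasma cell genes gave 44.5 to 53.7 and 26.4 to 37.2. Single genes carried much of these sums, which were therefore also taken without the leading gene, a step added after the values were seen. *Xbp1*, which B cells also express, held 79.8% to 95.3% of the plasma cell sum, and without it the sum was 6.72 to 8.99 on control and 1.47 to 5.33 on knockout arrays. *Igj*, the joining chain, differed by -1.92 (limma adjusted p = 0.133) and *Xbp1* by -0.52 (0.157), both without overlap, while *Prdm1* (-0.48) and *Sdc1*, which cleared background on no knockout array, overlapped between genotypes. *Gpr183* held 40% to 56.6% of the germinal centre sum and overlapped (-0.17), and without it the sum was 3.61 to 4.76 on control and 2.63 to 2.88 on knockout arrays. *Bcl6* of that list differed by -0.60 without overlap (limma adjusted p = 0.133), and *Fas* went the other way, 0.87 higher without overlap (0.149). *S1pr2* cleared background on no knockout array and its values gave no lower bound of a fold, so no direction is given for it. The T cell sum overlapped (8.87 to 14.6 on control, 12.9 to 15.7 on knockout), but *Lck* held 46.3% to 65.7% of it, and without *Lck* it was 4.76 to 5.15 on control and 5.37 to 6.73 on knockout arrays. *Cd3e* was 0.60 higher without overlap (limma adjusted p = 0.128) and *Cd3d* 1.41 higher with overlap (0.189), while *Cd3g* differed by -0.28 with overlap (0.414). The macrophage sum overlapped (13.6 to 25.2 and 11 to 20.5). *Gcet2* and *Mybl1* of the germinal centre list and *Tnfrsf17* of the plasma cell list were well above background on no array. The part of these cells in the differences of the members was not tested.

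For the remaining members, the genes whose centred values over the 6 arrays lay nearest were, of 18242 compared, *Ubn1* (root mean square distance 0.0154) and *Fam53c* (0.0266) for *Msh6*, *Samd8* (0.0302) and *Sh2d7* (0.0355) for *Polh*, and *Nckipsd* (0.0427) and *Fig4* (0.0429) for *Trp53bp1*. For *Pms2* they were *Mphosph8* and a probe with no gene name (both 0.0254). *Exo1* had no neighbour as near, with *Islr2* at 0.112 and an intergenic region of chromosome 16 at 0.132.

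Promoters were read because *Exo1* and *Msh6* were both lower with the proliferation genes. RefSeq promoters (GRCm38.p6, 300 bases from 250 before to 50 after the start) were matched for 6 of the 7 members, all but *Exo1*. E2F letters (TTTGGCGC, TTTCCCGC, TTTGCCGC or TTTCGCGC, either strand) were in 2.26% of 32851 promoters and, of the members, in *Msh6* alone, 16 bases after the start. The 30 bases around them, at chr17:87975054-87975083 on the plus strand, are shown with the letters in capitals. The E-box CACGTG was in 7.15% of promoters and in none of the 6. Letters in a window are a description, and no binding was measured.
Msh6 promoter: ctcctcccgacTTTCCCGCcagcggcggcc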

How the data were processed

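PC B1a cells from 3 p40-/-CD25-/- and 3 p40-/-CD25+/- samples were profiled, 1 sample per array. The authors deposited spot intensities from Agilent Feature Extraction 10.7.1.1 (per the labels), background subtracted and detrended within the array but not scaled between arrays. They also deposited a table of log2 values whose scaling is not stated, used here as an alternative. Quality marks per the file headers (well above background, saturated, outlier) were used as given.

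From the deposited intensities, log2 processed signal minus the 75th percentile of the 59305 non-control spots was computed. Outlier spots (163 to 251 per array) were left out, and repeated spots were averaged. Testing took each probe for which, in 1 or both genotypes, all 3 arrays marked it well above background and each genotype had 2 or more measured arrays (24754 probes). The 2 genotypes were fitted with limma (version 3.58.1, lmFit then eBayes, R version 4.3.3) and no covariate, with Benjamini-Hochberg adjustment over all tested probes. Where lists are counted, 1 tested probe stands for a gene, the one of highest mean. Where some arrays of a group did not clear background, a fold is a lower bound against, per array, the higher of the lowest value well above background and the probe's own. The steps were tested on simulated data.

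The members and lists were chosen with earlier results of these data known. Named genes are the members with every probe, the genes of each list past the 2-fold threshold or else the 2 with the smallest unadjusted p, the 2 nearest genes to each member, and the targeted genes. A gene that this rule covers is not reported here. Coordinates are those of the array files (mm9). Exons and untranslated regions under the probes were not analysed here. Replicate numbers were not taken to pair the samples, since the correlation of same-numbered arrays in their deviations from the group means was 0.175, 0.0573 and 0.120, not above 0.1 in every pair. Alternatives were other scalings, normexp background correction (offset 50), the deposited log2 values, other filters and probe summaries, other tests, the replicate block, each array left out in turn and, added after seeing the data, the members without Ung.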

Additional observations from a re-analysis of the deposited data

How the results depend on the processing

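Of the member probes, Exo1, Msh6, Polh and the dimmer Trp53bp1 probe kept their direction in every alternative run on them. Quantile normalization reversed the brighter Pms2 probe (0.0531), as did scaling on the median of probes detected throughout (0.0483), normexp with quantile normalization (0.0467), the deposited log2 table (0.0472) and leaving out 1 array (-0.0927 without control 2 to 0.0204 without knockout 2). Normexp with the 75th percentile reversed Ung (-0.0608) and the dimmer Pms2 probe (0.282), and averaging the probes of each gene turned Trp53bp1 to 0.0899. The cause was not tested. The number of member probes past the adjusted p was 0 in the main analysis, 2 with normexp and the 75th percentile (Msh6 and the dimmer Trp53bp1 probe), and 1 with a trend and robust estimation and 1 with array weights (Exo1 in both), where these settings called 37.7%, 3.96% and 2.78% of all probes. The number past the 2-fold threshold was 0, and 1 after quantile normalization and in the deposited table, and 0 to 1 when an array was left out (1 without control 2 or without knockout 1, Exo1 each time). Pathway genes past the adjusted p numbered 0, 25 with normexp and the 75th percentile, 2 with a trend and robust estimation and 2 with array weights. In these settings that was 30.9%, 2.47% and 2.47% of the pathway genes, by 1 probe per gene. The shares just given are over all probes, so the 2 kinds of share are not alike. With the replicate block, the adjusted p of Exo1 was 0.119 and of Msh6 0.142, and no member call changed. In deviations from the group means, every array correlated best with the array of its own number in the other genotype, a hint from the data and not the design. Over all probes the block took the adjusted calls from 20 to 1. Signal over background limits Dntt, which is near background on most arrays and has no difference given.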
